A study of Mus musculus with 20 samples.

Results

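This account describes 9 genes that encode enzymes of mitochondrial fatty acid beta-oxidation in mouse liver and in hepatocyte organoids. The genes were taken by name, through their Ensembl identifiers, from a table of 54532 genes, and all 9 were found there and passed the filter that left 13162 genes for testing. They are Cpt2, Acadvl, Acadl, Acadm, Acads, Hadha, Hadhb, Hadh and Etfdh. The table holds 20 RNA sequencing libraries in 10 groups of 2, all labelled C57BL/6 and without a further agent or allele. Undamaged liver is 1 group, and 8 groups are liver after partial hepatectomy (PHx, in which 70% of the organ is cut away) at 6, 12, 24, 48 and 72 h and at 7, 14 and 21 d. The last group, Hep-Org, is organoids, 3-dimensional cultures grown from hepatocytes in Matrigel and passaged. By the growth protocol the liver libraries came from freshly isolated hepatocytes rather than whole tissue, although replicate 2 of each PHx time has no cell type label. The labels name replicates but do not give separate animals or cultures, nor sex or age. P-values here therefore measure only the spread between these libraries, which may be technical.

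Beta-oxidation shortens fatty acids in the mitochondrial matrix and feeds acetyl-CoA to the citrate cycle and, in liver, to ketone body synthesis. CPT2, on the inner mitochondrial membrane, releases the fatty acid from carnitine to coenzyme A. Acyl-CoA dehydrogenases of different chain-length preference then take the first oxidation step (ACADVL for very long, ACADL for long, ACADM for medium and ACADS for short chains). HADHA and HADHB are the alpha and beta subunits of the trifunctional protein, which carries out the remaining steps on long chains, and HADH is the dehydrogenase of the third step on shorter chains. ETFDH passes the electrons of the dehydrogenases on to ubiquinone. PPARA, a nuclear receptor for fatty acids, is a known regulator of this pathway in liver.

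Hadha and Hadhb lie head to head on chromosome 5 and share their upstream sequence, so the bases before the Hadhb start are shown for this pair. Those of Cpt2 and Hadh are shown because these genes had the most different levels at 6 and 12 h among the ratios described below. Each run is the 250 bases before the RefSeq start on GRCm38.p6, written 5′ to 3′ on the gene's strand, with GC boxes (GGGCGG on either strand) and CCAAT in capitals.
Hadhb, chr5:30155003-30155252, plus strand: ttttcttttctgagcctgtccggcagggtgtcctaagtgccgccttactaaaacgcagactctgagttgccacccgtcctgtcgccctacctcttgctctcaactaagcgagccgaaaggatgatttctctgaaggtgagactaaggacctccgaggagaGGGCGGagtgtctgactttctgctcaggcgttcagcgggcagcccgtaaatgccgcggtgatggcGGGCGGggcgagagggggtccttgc
Cpt2, chr4:107923590-107923839, minus strand: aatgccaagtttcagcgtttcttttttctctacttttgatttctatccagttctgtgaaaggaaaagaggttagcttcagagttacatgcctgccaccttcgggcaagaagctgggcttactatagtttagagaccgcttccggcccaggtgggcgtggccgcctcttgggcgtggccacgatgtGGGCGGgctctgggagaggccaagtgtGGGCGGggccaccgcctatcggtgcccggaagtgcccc
Hadh, chr3:131272102-131272351, minus strand: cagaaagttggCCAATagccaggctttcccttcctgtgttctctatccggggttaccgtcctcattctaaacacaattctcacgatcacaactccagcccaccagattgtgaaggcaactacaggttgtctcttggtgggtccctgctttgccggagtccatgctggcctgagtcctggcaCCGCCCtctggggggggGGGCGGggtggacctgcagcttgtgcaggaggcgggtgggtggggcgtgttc

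The RefSeq starts of Hadha and Hadhb were 273 bases apart. RefSeq promoter windows, from 250 bases before a start to 50 after it, were matched for 9 of 9 genes, and those of Hadha and Hadhb overlapped by 228 bases. In these windows 6 motifs were searched on both strands, a choice made after the expression values were known. A GC box was present in 7 of the 9 windows and in 35.66% of 32851 promoters. The 2 windows without one belonged to Acadm and Acadvl. CCAAT was present in 2 of 9 (Hadh and Etfdh) and in 37.41% of all promoters. The other 4 motifs were in 0 of the 9 windows. They were TATAAA (13.62% of all promoters), CACGTG (7.15%), the estrogen-related receptor motif TCAAGGTCA (0.42%) and AGGNCA repeated after 1 spacer base, the direct repeat that PPARA with its partner is known to bind (0.38%). These matches describe letters in the windows and say nothing of which factors bind there.

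Values are FPKM, by definition fragments per kilobase of exon scaled to sequencing depth, as the authors deposited them. Depth recovered from the low values was 13647967 to 41385970 reads per library, and each of the 9 genes rested on 485 to 9195 reads in every library. The recovered depth was 0.477 to 1.938 times the library size that the FPKM imply, so the values were taken as scaled further by the authors. A difference is given on the scale of log2(FPKM + 1), with its standard error (SE) from limma fitted to all tested genes. Such differences understate changes of low genes. A gene was called changed at an adjusted p under 0.05 and a log2 difference of at least 1 in either direction. Several libraries stood apart. The 6 libraries of 48 h, 72 h and 7 d had Xist levels of 13.6 to 23.7 FPKM and the Y-linked Ddx3y listed at 0, while the other PHx libraries had Xist of at most 0.137 and Ddx3y of at least 9.66. The Hep-Org replicates differed in the same way (Xist at 0.00128 and 25.3). The undamaged libraries, like the other PHx libraries, lacked Xist (0 FPKM) and had Ddx3y of at least 10.85. Sex, as marked by these genes, therefore cannot be told apart from time at 48 h, 72 h and 7 d. Mitochondrially encoded genes took 40.75% of the reads of 6 h replicate 2, the highest share. Hepatocyte markers summed to 21388 to 73764 FPKM in the liver libraries and 908 to 4222 in Hep-Org. The FPKM themselves summed to 167676 to 988797 per library, so a comparison of Hep-Org with liver depends on how libraries are scaled.

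**Figure D1:**
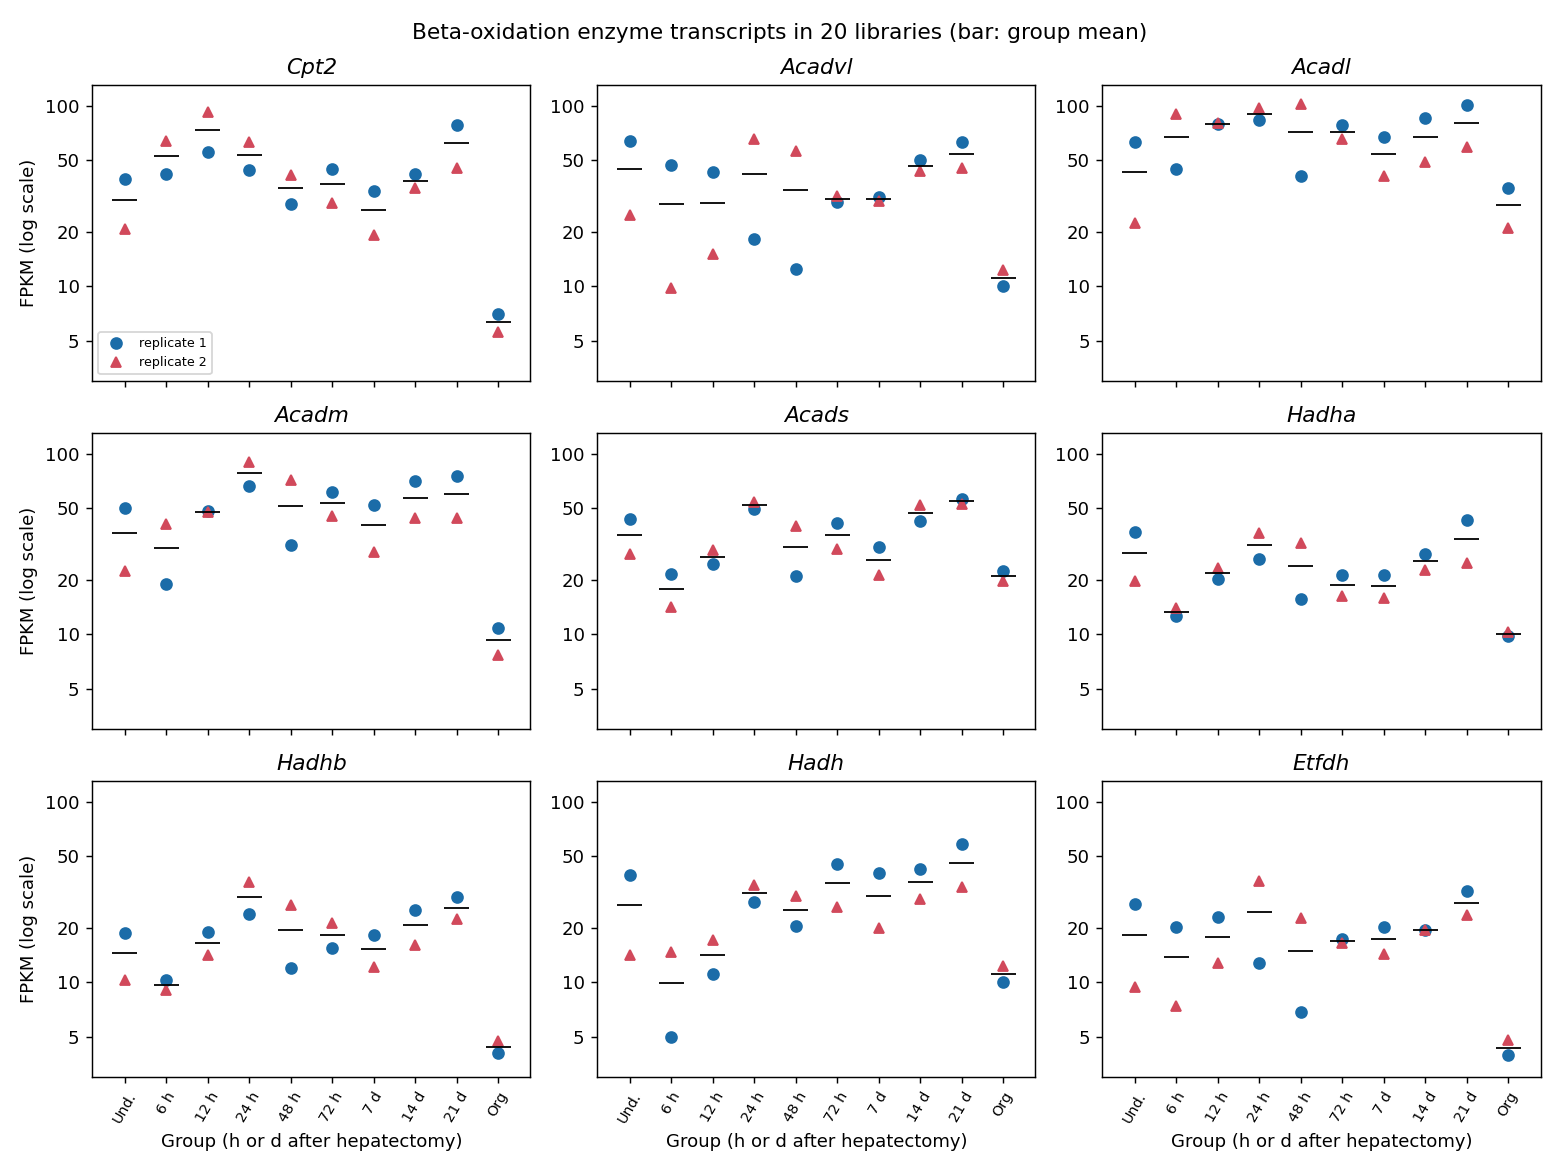
Level of each of the 9 genes (FPKM, log scale) in the 20 libraries by group, with replicate 1 as circles, replicate 2 as triangles and the group mean as a bar (Und., undamaged; Org, Hep-Org). Hep-Org sits below every liver library for Cpt2, Acadm, Hadha, Hadhb and Etfdh, while Acadvl and Etfdh show wide gaps between replicates from 6 to 48 h.

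Across the liver libraries Acadl had the highest deposited level, with a median of 72.6 FPKM over 18 libraries, followed by Acadm at 47.8 and Cpt2 at 41.7. Etfdh (19.5) and Hadhb (18.6) were the lowest. These FPKM divide by the length of all annotated exons, which is 6595 bases for Hadhb and 2048 bases for its principal transcript. Per length of the principal transcript, the liver medians ran from 91.4 for Acadm through 78.9 for Hadh and 76.0 for Acadl to 42.5 for Acads and 42.0 for Cpt2, so the order between genes depends on the length used. Within a gene the length does not matter, and every gene varied in the liver libraries by 3.40 (Hadha) to 11.6 times (Hadh) between its lowest and highest library. When the 10 groups were ordered by mean for each gene, 9 of the 81 neighbouring pairs had libraries that did not overlap, where 14.9% of such pairs did not over all tested genes.

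Cpt2 (chromosome 4, 107903981 to 107923610), the carnitine step, was the only one of the 9 with its highest mean at 12 h. Its levels in replicates 1 and 2 were 39.0 and 20.7 FPKM in undamaged liver, 41.6 and 64.0 at 6 h, 55.3 and 91.8 at 12 h, and 44.0 and 63.0 at 24 h. Later they were 28.7 and 41.2 at 48 h, 44.8 and 29.0 at 72 h, 33.8 and 19.3 at 7 d, 41.7 and 35.2 at 14 d, and 78.5 and 45.2 at 21 d. In Hep-Org they were 7.06 and 5.60. Both libraries of 6, 12 and 24 h and of 21 d lay above both undamaged libraries, and both Hep-Org libraries lay below every liver library. The differences from undamaged liver were 0.84 (SE 0.47) at 6 h, 1.30 (SE 0.47) at 12 h and 1.05 (SE 0.47) at 21 d on the log2 scale, and did not pass the test (limma adjusted p = 0.258, 0.147 and 0.654).

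Of the acyl-CoA dehydrogenases, 0 of 4 were called over the time course, where 9.51% of all tested genes were. Acadl (chromosome 1, 66830839 to 66863277), for long chains, was at 63.0 and 22.3 FPKM in undamaged liver, 44.4 and 89.2 at 6 h, 78.8 and 80.1 at 12 h, 83.5 and 96.7 at 24 h, and 41.0 and 102 at 48 h. It then was at 78.5 and 64.9 at 72 h, 66.8 and 40.7 at 7 d, 85.3 and 48.6 at 14 d, 101 and 59.1 at 21 d, and 35.1 and 20.9 in Hep-Org. The 12 and 24 h libraries lay above both undamaged ones, by 1.06 (SE 0.61) and 1.23 (SE 0.61) on log2, without passing the test (limma adjusted p = 0.366 and 0.511). Acadl was also the gene whose Hep-Org libraries overlapped the undamaged ones.

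Acadm (chromosome 3, 153922357 to 153944632), for medium chains and the enzyme lost in the commonest human disorder of this pathway, was at 50.2 and 22.5 FPKM in undamaged liver, 19.1 and 41.0 at 6 h, 47.9 and 47.8 at 12 h, 65.8 and 90.0 at 24 h, and 31.4 and 71.1 at 48 h. At 72 h it was at 61.3 and 44.9, at 7 d at 52.1 and 28.6, at 14 d at 70.2 and 44.1, at 21 d at 75.1 and 43.9, and in Hep-Org at 10.9 and 7.64. Its highest mean was at 24 h, where both libraries exceeded both undamaged ones, with a log2 difference of 1.17 (SE 0.56, limma adjusted p = 0.493). The Hep-Org libraries were the lowest of all 20.

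Acads (chromosome 5, 115110299 to 115119346), for short chains, differed between replicates by at most 1.88 times (48 h). Its levels were 43.4 and 27.7 FPKM in undamaged liver, 21.7 and 14.1 at 6 h, 24.5 and 29.4 at 12 h, 49.4 and 54.1 at 24 h, and 21.0 and 39.5 at 48 h. They were 41.3 and 29.7 at 72 h, 30.6 and 21.3 at 7 d, 42.4 and 52.0 at 14 d, 56.2 and 52.9 at 21 d, and 22.4 and 19.7 in Hep-Org. Both 6 h libraries lay below both undamaged libraries (log2 difference -0.94, SE 0.38, limma adjusted p = 0.119), and the 24 h and 21 d libraries lay above them. The Hep-Org libraries overlapped those of 6 h, 48 h and 7 d.

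Acadvl (chromosome 11, 70010183 to 70015411), for very long chains, varied between replicates more than any other of the 9 genes at 6 to 48 h. It was at 64.0 and 24.7 FPKM in undamaged liver, 46.9 and 9.82 at 6 h, 42.7 and 15.1 at 12 h, 18.4 and 65.0 at 24 h, and 12.5 and 55.9 at 48 h. From 72 h the replicates were close, at 29.1 and 31.5 (72 h), 31.2 and 29.8 (7 d), 49.7 and 43.2 (14 d), and 62.5 and 45.4 (21 d), and Hep-Org was at 10.004 and 12.3. The higher library was replicate 1 at 6 and 12 h and replicate 2 at 24 and 48 h. Exons of Acadvl overlap by 1151 bases those of Dvl2 on the opposite strand, which was at 0.255 to 1.76 FPKM, and whether the counting used strand is not given in the sources used here.

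Hadha (chromosome 5, 30118304 to 30155162), the alpha subunit of the trifunctional protein, was at 36.6 and 19.8 FPKM in undamaged liver, 12.6 and 14.1 at 6 h, 20.3 and 23.4 at 12 h, 26.1 and 36.4 at 24 h, and 15.7 and 32.0 at 48 h. It was at 21.3 and 16.3 at 72 h, 21.2 and 15.9 at 7 d, 28.0 and 22.7 at 14 d, 42.9 and 24.8 at 21 d, and 9.83 and 10.3 in Hep-Org. Both 6 h libraries were below every other liver library, with a log2 difference from undamaged liver of -0.96 (SE 0.41, limma adjusted p = 0.139). Hadhb (chromosome 5, 30155248 to 30184593), the beta subunit, was at 18.9 and 10.3 FPKM in undamaged liver, 10.4 and 9.05 at 6 h, 19.1 and 14.2 at 12 h, 23.8 and 35.8 at 24 h, and 12.0 and 26.8 at 48 h. It was at 15.4 and 21.3 at 72 h, 18.3 and 12.2 at 7 d, 25.2 and 16.2 at 14 d, 29.6 and 22.3 at 21 d, and 4.07 and 4.73 in Hep-Org. Hadhb at 24 h lay above both undamaged libraries (log2 difference 1.01, SE 0.43, limma adjusted p = 0.435), whereas the Hadha libraries of these groups overlapped.

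The 2 subunits of the trifunctional protein did not keep 1 ratio. In FPKM, Hadha stood at 0.765 to 1.94 times Hadhb in the 18 liver libraries and at 2.18 and 2.42 times in Hep-Org. Across the liver libraries the log2 levels of the pair had Pearson's r of 0.814, a description over libraries that share groups and scaling.

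Hadh (chromosome 3, 131233419 to 131272101), the dehydrogenase for shorter chains, had the widest range of the 9 in liver. It was at 39.4 and 14.1 FPKM in undamaged liver, 5.001 and 14.8 at 6 h, 11.2 and 17.2 at 12 h, 27.8 and 34.6 at 24 h, and 20.6 and 30.0 at 48 h. It was at 45.1 and 26.1 at 72 h, 40.1 and 19.997 at 7 d, 42.5 and 29.0 at 14 d, 58.0 and 33.7 at 21 d, and 10.007 and 12.4 in Hep-Org. The 6 h libraries and undamaged replicate 2 overlapped, and the log2 difference at 6 h was -1.33 (SE 0.59, limma adjusted p = 0.158). Without 6 h replicate 2, the remaining 6 h library gave -2.04 and Hadh was then called lower (limma adjusted p = 0.0452, the lowest of a range of up to 0.769 when 1 library at a time was left out), with the lone library assumed to vary like the other groups.

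Etfdh (chromosome 3, 79603788 to 79629500), the exit for electrons, was at 27.3 and 9.45 FPKM in undamaged liver, 20.2 and 7.41 at 6 h, 22.9 and 12.8 at 12 h, 12.9 and 36.4 at 24 h, and 6.83 and 22.9 at 48 h. It was at 17.4 and 16.5 at 72 h, 20.2 and 14.4 at 7 d, 19.5 and 19.5 at 14 d, 31.9 and 23.5 at 21 d, and 3.95 and 4.78 in Hep-Org. Its higher replicate was the same as that of Acadvl in 8 of 10 groups.

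Compared with undamaged liver, 0 of the 9 genes were called at any of the 8 times after hepatectomy. Of all tested genes, 10.9% were called at 6 h and 3.08% at 12 h, then 0.41% at 48 h, 0.889% at 72 h and 0.425% at 7 d, with 0% at each of 24 h, 14 d and 21 d. At an unadjusted p under 0.05 in limma, 3 of the 9 differed at 6 h (Acads, Hadha and Hadh, all lower), and Cpt2 did so at 12 h and 21 d, Hadhb at 24 h, with 0 at the other times. For all 13162 genes that count was 3885 (6 h), 2626 (12 h), 1380 (24 h) and 1000 (21 d). The limma-voom test on recovered reads also called 0 of 9 at each time. It called 1512 of all tested genes at 6 h, 361 at 12 h and at most 39 later. It used the library sizes that the FPKM imply, so it kept the deposited scaling and is no check on it. Undamaged replicate 2 was low for these genes, with the 9 FPKM values summing to 171.6 against 381.9 in replicate 1, and Saa1, an acute-phase gene, was at 20927 FPKM there and 19.9 in replicate 1. Leaving that library out changed the count of called members at 0 of the 8 times.

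Over the 8 times after hepatectomy alone, 0 of 9 passed limma's moderated F test, where 9.51% of all tested genes did. Acads came closest, with a range of fitted means of 1.59 on log2 and an adjusted p of 0.0756, followed by Hadh with a range of 2.22 (adjusted p = 0.147). At an unadjusted p under 0.05 in that test, 2 of the 9 differed, a count not given here for all genes. Limma-voom called 0 of the 9 and 1089 of all tested genes. Without the term for submission, Acads was called (limma adjusted p = 0.0401), and so it was without 48 h replicate 2 (0.0469, within a range of up to 0.162 when 1 library at a time was left out). For 7 of the 9 genes the lowest fitted mean was at 6 h and the highest at 24 h or 21 d, the exceptions being Acadl and Cpt2, whose lowest was at 7 d. This order describes fitted means on the deposited scale and was not itself tested, and no share of all genes is given for it. At 6 h the median of the 9 against undamaged liver turned from -0.49 to 0.10 after rescaling without mitochondrially encoded genes. The 48 h, 72 h and 7 d libraries were those with high Xist, so time and sex cannot be told apart in this test.

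The 24 h libraries differed from the 6 h libraries in 2 of the 9 genes, both higher, where 8.42% of all tested genes were called in either direction. Acads rose by 1.51 (SE 0.37, limma adjusted p = 0.0248) and Hadhb by 1.4996 (SE 0.42, limma adjusted p = 0.0397). All 9 differences were positive, with a median of 1.15 on log2 against -0.01 for all genes, although Cpt2 turned to -0.15 after rescaling to the same FPKM sum without mitochondrially encoded genes. In FPKM the libraries of the 2 times did not overlap for 5 genes, all higher at 24 h (Acadm, Acads, Hadha, Hadhb and Hadh), as for 27.4% of all tested genes. Hadh differed by 1.72 (SE 0.58, adjusted p = 0.0754), Acadm by 1.43 (SE 0.54, adjusted p = 0.113) and Hadha by 1.15 (SE 0.40, adjusted p = 0.0825), all in limma. Cpt2 differed by 0.03 (SE 0.45), with an adjusted p of 0.987 in limma.

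The 24 h minus 6 h difference was also taken within each submission, replicate 1 with replicate 1 and replicate 2 with replicate 2. It was 1.15 and 1.87 for Acads and 1.13 and 1.87 for Hadhb. For Acadvl it was -1.31 and 2.61 and for Etfdh -0.61 and 2.15, opposite directions in the 2 submissions. Both calls were lost when either 24 h library was left out (limma adjusted p up to 0.124 for Acads and 0.233 for Hadhb), after rescaling every library to 1 common FPKM sum (limma adjusted p = 0.172 for Acads and 0.218 for Hadhb, where 1.71% of genes were called) and when no filter on low values was applied (0.0554 and 0.0953). The differences themselves were then 1.70 and 1.67 after rescaling and the same as before without the filter. Hadhb also lost its call without either 6 h library, either 21 d library or either Hep-Org library, and Acads without 6 h replicate 2. Markers of other cells moved between these times. The 5 erythroid markers summed to 581 and 7089 FPKM in the 6 h libraries and to 82.6 and 385 at 24 h, the 5 neutrophil markers to 106 and 801 against 20.2 and 61.4, and the 8 hepatocyte markers to 21388 and 32890 against 34013 and 58177. Not all markers of other cells fell. The 6 Kupffer cell and macrophage markers summed to 59.8 and 104 at 6 h and to 146 and 210 at 24 h. The 6 stellate and mesenchymal markers summed to 25.1 and 30.6 against 21.7 and 24.6. The part of all these markers in the differences was not tested, and in such samples fewer cells of a type and less RNA per cell cannot be told apart.

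**Figure D2:**
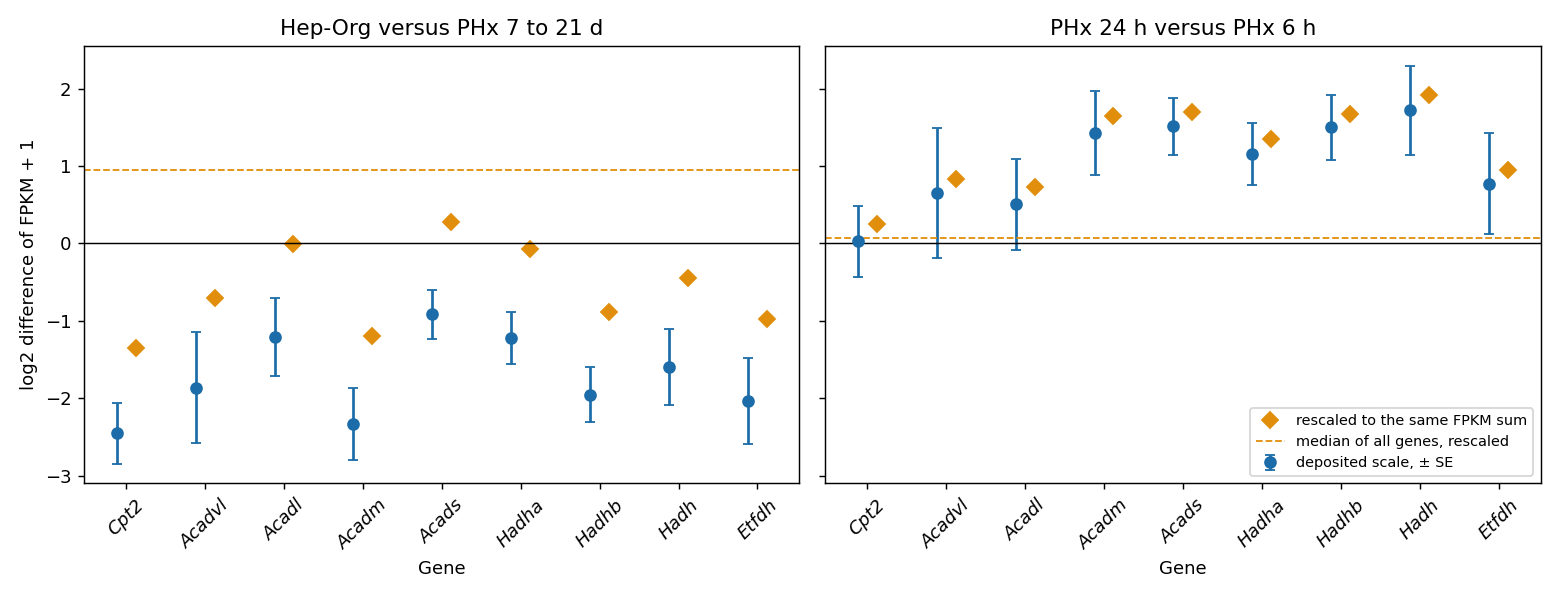
Log2 difference of FPKM + 1 of each gene between Hep-Org and PHx 7 to 21 d (left) and between PHx 24 h and 6 h (right), with the deposited scale as circles with SE bars, values rescaled to the same FPKM sum as diamonds and the rescaled median of all genes as a dashed line. On the left all 9 circles lie below 0 and all 9 diamonds below the dashed line at 0.95, although Acads is then above 0.

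The clearest contrast within a library was between Cpt2 and Hadh. Cpt2 was at 4.33 to 8.32 times the FPKM of Hadh in the 4 libraries of 6 and 12 h, at 0.841 to 1.82 times in the other 14 liver libraries, and at 0.453 and 0.706 times in Hep-Org. A ratio within a library does not depend on how libraries are scaled. Across the 18 liver libraries the log2 levels of the pair had r of 0.114, and within groups, after the group means were taken out, r of 0.94. The ratios at 6 and 12 h also lay above those of the other liver libraries for Cpt2 over Acads (1.92 to 4.54 against 0.677 to 1.40) and Cpt2 over Hadha (2.72 to 4.55 against 1.04 to 2.10). Within groups Cpt2 had r of 0.544 with Acads and 0.87 with Hadha. Acadm stood at 0.430 to 0.608 times Acadl at 6 and 12 h and at 0.692 to 1.01 times in the other liver libraries. In all, 7 ratios were computed, and they and this division of the times were chosen after the values were seen, so they are given without a test.

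**Figure D3:**
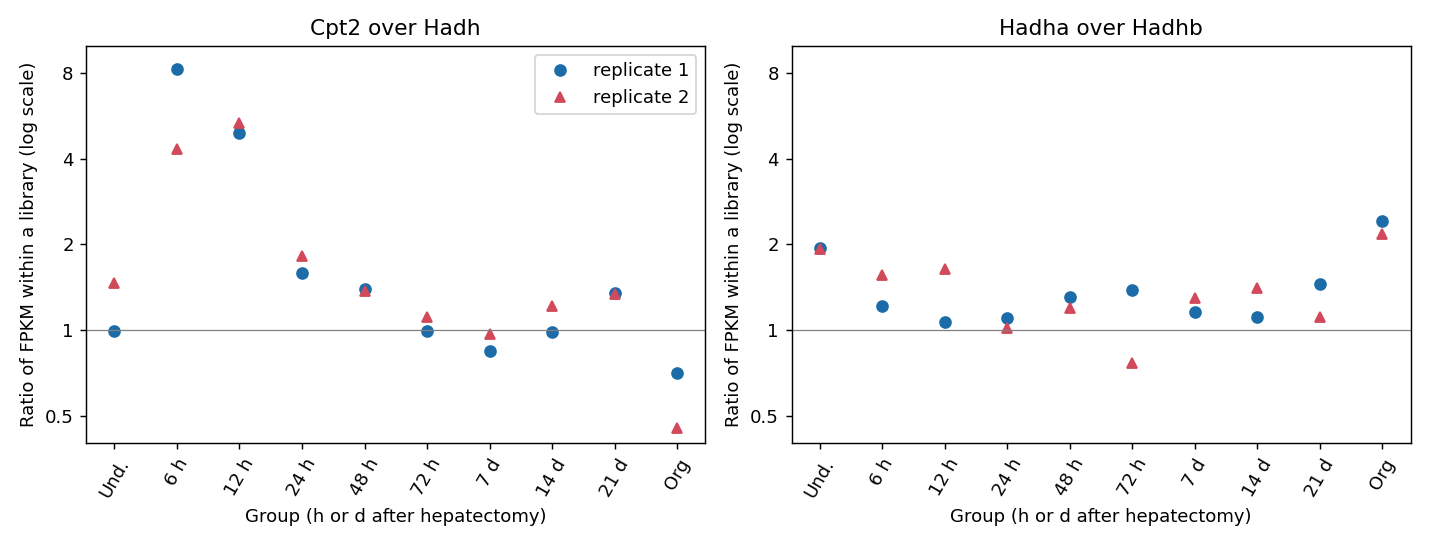
Ratio of FPKM within each library (log scale) for Cpt2 over Hadh (left) and Hadha over Hadhb (right), by group, with replicate 1 as circles and replicate 2 as triangles. On the left the 6 and 12 h libraries lie at 4.33 to 8.32 and all others at or below 1.82, and on the right the Hep-Org libraries lie above all liver libraries.

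Replicates of 1 group differed by unequal amounts among the 9 genes. Acadvl differed between replicates by 4.78 times (6 h), 2.83 times (12 h), 3.54 times (24 h) and 4.46 times (48 h), and by at most 1.38 times from 72 h to 21 d. Among genes with a mean of at least 5 FPKM in the group, 5.972% differed by as much (6 h), as did 9.6% (12 h), 4.07% (24 h) and 1.703% (48 h). Acadvl and Etfdh deviated from their group means together, with r of 0.969 over the 18 liver libraries, and so did Acadm and Acadl (r = 0.981), while r was 0.324 for Acadl and Acadvl. Hadhb had r of 0.77 with Acadvl and 0.756 with Acadl. With 2 libraries a group these are 9 independent differences, and the libraries share their scaling, so r is a description only. The higher replicate of Acadvl was also the higher of Hadhb and of Ppara in 10 of 10 groups, and that of Acadl the higher of Cpt2 and of Etfa, a subunit of the electron carrier that ETFDH reoxidises, in 10 of 10. Ppara itself was at 5.47 and 4.63 FPKM at 6 h, 2.33 and 9.72 at 24 h, and 1.94 and 9.79 at 48 h.

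**Figure D4:**
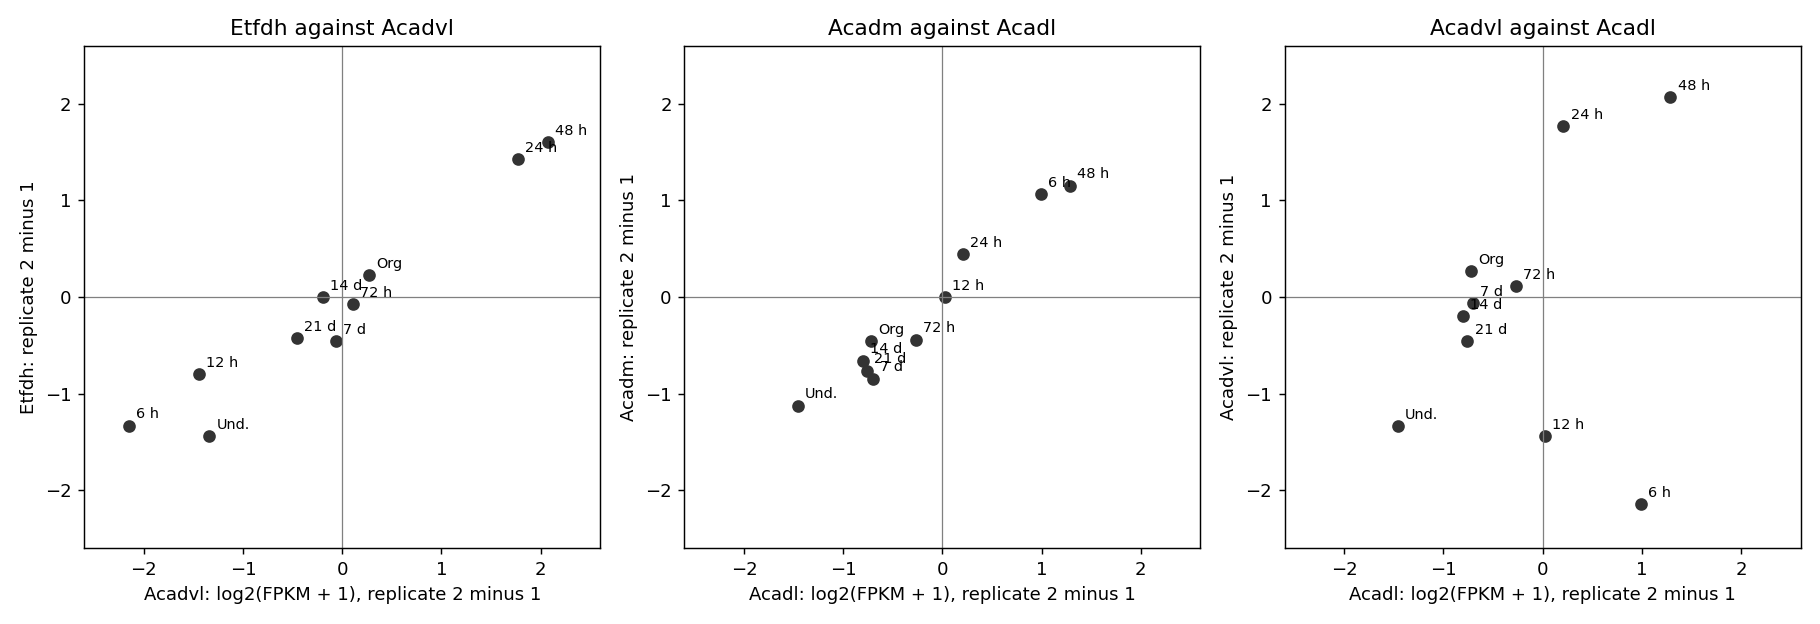
Difference between replicates 2 and 1 of log2(FPKM + 1) in each of the 10 groups, for Etfdh against Acadvl, Acadm against Acadl and Acadvl against Acadl. In the first 2 panels the groups lie near the diagonal, and in the third 6 h and 12 h lie below 0 for Acadvl while 24 h and 48 h lie above.

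In Hep-Org, the 9 genes were lower than in regrown liver on the deposited scale. The reference was the mean of the 7, 14 and 21 d groups, of which 7 d had high Xist. Against it 6 of 9 fell, where 24.9% of all tested genes were called. On log2 the differences of these were -2.45 for Cpt2 (SE 0.39, limma adjusted p = 3.86e-04), -2.33 for Acadm (SE 0.46, adjusted p = 0.00192), -2.04 for Etfdh (SE 0.56, adjusted p = 0.0125), -1.95 for Hadhb (SE 0.36, adjusted p = 0.00105), -1.60 for Hadh (SE 0.49, adjusted p = 0.0226) and -1.22 for Hadha (SE 0.34, adjusted p = 0.0140). Acads differed by -0.92 (SE 0.31, limma adjusted p = 0.0367), under the size required. Acadvl at -1.86 (SE 0.72, adjusted p = 0.0585) and Acadl at -1.21 (SE 0.50, adjusted p = 0.0777) did not pass the limma test. The median over the 9 was -1.86, against -0.01 for all genes, and the libraries overlapped for Acads alone among the 9, while 29% of all tested genes had Hep-Org below these libraries without overlap. Within the first submission, which holds both Hep-Org libraries and 1 library of each time, the 9 differences ran from -0.96 (Acads) to -2.75 (Cpt2).

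Against undamaged liver 4 of 9 fell, with 23.5% of all tested genes called. These were Cpt2 at -2.01 (SE 0.45, limma adjusted p = 0.00539), Acadm at -1.78 (SE 0.54, adjusted p = 0.0268), Hadhb at -1.48 (SE 0.42, adjusted p = 0.0181) and Hadha at -1.34 (SE 0.40, adjusted p = 0.0235). Etfdh at -1.69, Acadvl at -1.76, Hadh at -1.03, Acads at -0.70 and Acadl at -0.46 did not pass. These 2 comparisons share the Hep-Org libraries and are not independent. When 1 Hep-Org library was left out, the calls fell to 3 of 9 against regrown liver (Acadm, Hadhb and Cpt2) and to 1 of 9 against undamaged liver (Cpt2), the lone library being assumed to vary like the other groups. Leaving out undamaged replicate 1 also left only Cpt2.

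The direction of the comparison with undamaged liver depended on scaling. After each library was rescaled to the same FPKM sum, the median of all genes in Hep-Org moved to 1.29 above undamaged liver and 0.95 above regrown liver, and that of the 9 genes to 0.23 and -0.705. The median of the 9 was thus lower than that of all genes by 1.06 and 1.65 on log2, with Acadl (1.42 against undamaged liver) above the median of all genes there. Against undamaged liver 8 of 9 were above 0 (all but Cpt2) and 0 were called, where 62.9% of the 14078 genes tested at that scaling were called. Against regrown liver 8 of 9 were negative and 1 was called, lower, where 54.1% of genes were called and 7.88% were called lower. The 9 together took 0.0613% and 0.0586% of the FPKM sum in the Hep-Org libraries, within the 0.0174% to 0.120% of the liver libraries.

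A gene's rank within its library does not depend on scaling either. Cpt2 ranked at the 70.2 and 74.9 percentile in Hep-Org (the percent of the 13162 tested genes below it) and from 87.1 to 96.3 in the liver libraries. Hadhb ranked at 60.8 and 65.7 against 77.3 to 92.2, Etfdh at 59.9 and 66.0 against 73.6 to 92.3, Acadm at 77.3 and 83.5 against 87.9 to 96.5, and Hadha at 81.6 and 83.0 against 83.7 to 92.6. For these 5 genes the ranks in Hep-Org lay below those in every liver library, as they did for 12.2% of all tested genes, and for 16% the FPKM did. The ranks of Acadl (91.7 and 94.9), Acads (91.2 and 91.9), Acadvl (81.9 and 85.6) and Hadh (81.9 and 85.8) lay within the range of the liver libraries.

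Markers moved with this contrast as well. The 8 hepatocyte markers summed to 908 and 4222 FPKM in Hep-Org and 7 of 8 fell against regrown liver, where 24.9% of all tested genes were called. The 5 cholangiocyte or progenitor markers summed to 2729 and 4444 FPKM, against 5.39 to 335 in the liver libraries, and 5 of 5 rose. Of these sums in Hep-Org, Krt19 made up only 9.80 and 17.3 FPKM and Epcam 6.89 and 5.24, and the rest came from the other markers of the list. The Kupffer cell and macrophage markers summed to at most 4.32 and the endothelial markers to at most 0.277 in Hep-Org. The part of these markers in the differences was not tested.

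Other genes of the pathway were mostly lower in Hep-Org than in regrown liver on the deposited scale. Of all tested genes in this comparison, 24.9% were called in either direction, and 1796 of 13162 were called lower. Of the entry and carnitine shuttle list, 8 of 10 tested genes fell and 0 rose, with a median of -3.62. They included the fatty acid transport and activation proteins Slc27a5 (-7.65) and Slc27a2 (-5.05), the fatty acid binding protein Fabp1 (-8.94), and Cpt1a, the outer-membrane carnitine step, which fell by 3.03 (limma adjusted p = 0.00177). Of the other mitochondrial beta-oxidation genes 15 of 16 fell and 0 rose, with a median of -2.14, among them the thiolase Acaa2 (-3.63) and the electron carrier subunits Etfa (-2.11) and Etfb (-2.30). All 14 peroxisomal genes fell (median -3.26), including the bifunctional enzyme Ehhadh (-3.80), as did all 4 ketone body genes (median -3.10). Of 9 regulators 5 fell, among them Ppara (-3.07), and 1 rose, the nuclear receptor Esrra (1.18), named after its value was seen. The citrate cycle enzymes had 3 of 8 lower and 0 higher (median -0.31), and of 3 outer membrane genes 1, the import receptor Tomm20, was higher (1.06). After rescaling to the same FPKM sum, where 7.88% of all tested genes were called lower, the counts lower were 6 of 10 entry genes (with 1 higher), 6 of 16 other mitochondrial, 12 of 14 peroxisomal, 3 of 4 ketone body and 3 of 9 regulator genes (with 2 higher), and the medians of these lists stayed below 0, while that of the citrate cycle list turned to 0.83 (0 of 8 lower, 2 higher).

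At 6 h genes of these lists were called in both directions against undamaged liver, where 10.9% of all tested genes were called. Of the entry and carnitine list 1 rose, the carnitine transporter Slc22a5 (2.42, limma adjusted p = 0.0276), and 2 fell, the fatty acid activating enzymes Slc27a5 (-2.33) and Acsl5 (-2.22). In the other mitochondrial list 3 of 16 fell (Mut at -2.08, Acad10 at -1.18, named after its value was seen, and Acadsb at -1.005) and 0 rose. Of the peroxisomal list 1 of 14 fell and 0 rose. In the citrate cycle list 1 of 8 fell, the dehydrogenase subunit Sdha (-1.59), and 1 rose, the fumarase Fh1 (1.43). After rescaling to the same FPKM sum, with 2.47% of all genes called, 1 entry gene was called, lower, and 0 genes of the other 3 lists. After the same rescaling without mitochondrially encoded genes, with 10.4% called, the other mitochondrial list had 2 higher and 0 lower and its median turned from -0.46 to 0.17, the citrate cycle list had 1 higher and 0 lower, the entry list had 1 higher and 2 lower, and the peroxisomal list had 0 called. From 6 h to 24 h, where 8.42% of all tested genes were called, 1 of 16 other mitochondrial genes rose, the hydratase Echs1 (1.28, limma adjusted p = 0.0336). Of 4 ketone body genes 1 rose, Bdh1 (1.97, limma adjusted p = 0.0361). Of 9 regulators 1 fell, the inhibitory carboxylase Acacb (-1.29, limma adjusted p = 0.0388). Of the 10 entry and 14 peroxisomal genes 0 were called. After rescaling to the same FPKM sum, 0 of these lists' genes were called from 6 h to 24 h.

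The genes most like the 9 were found by Pearson's r with the mean of their standardised log2 levels. Over all 20 libraries these were Acad11 (r = 0.962), Slc25a13 (0.947), Ankrd46 (0.947), Dhrs4 (0.942) and Hsd17b4 (0.933). Over the 18 liver libraries they were Acad11 (0.943), Cops7a (0.924), Ankrd46 (0.898), Chp1 (0.894) and Dhrs4 (0.892). Acad11, another acyl-CoA dehydrogenase, led both. Among the 9 themselves, each of which contributes to the mean, r over the liver libraries ran from 0.924 for Hadhb to 0.534 for Cpt2.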

How the data were processed

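The authors deposited 1 table of FPKM for 20 libraries. Reads were aligned with HISAT2 2.0.5 to mm10, per the submitters' processing notes, while the sources used here do not give the counting tool, annotation, strand or scaling between libraries. With GENCODE M21 exon lengths, between 97.9% and 98.7% of the low FPKM values (those of at most 20 reads) were whole reads within 0.05, and the recovered depth was 0.477 to 1.938 times the library size implied, so the values were taken as scaled by the authors. The column of undamaged replicate 1 was matched by elimination. Symbols and positions came from GENCODE M21 (54409 genes named).

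The 13162 genes that reached 1 FPKM in 2 or more libraries were tested on log2(FPKM + 1) with limma 3.58.1 (R 4.3.3) in all 20 libraries at once, with the options trend and robust (residual degrees of freedom 9, prior 3.29), a mean for each group and submission as a term. The series text speaks of a second submission, so replicate 2 of each PHx time (8 libraries) was taken as the second and the other 12 as the first. The numbers did not behave as pairs in the data: over 28 pairs of times the correlation of replicate differences ran from -0.381 to 0.472 (median -0.115) and exceeded 0.1 in 4. P-values were adjusted by Benjamini-Hochberg over all genes within a comparison. Alternatives were a pseudocount of 0.1, no filter, scaling to the same sum or by median ratios, no submission term, limma-voom on recovered reads and leaving out each library, and the procedure was tested on simulated data. Limma-voom was given the library sizes implied by the FPKM, not the recovered totals, so it kept the deposited scaling. Python 3.11.15 with pandas 2.3.3 wrote the summaries. Promoters are RefSeq sequence on GRCm38.p6.

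The members and lists were chosen with earlier results of these data known. All 9 members are described. From each wider list at most 3 genes are named, those with the largest absolute moderated t and a mean of at least 5 FPKM in the higher group, and Cpt1a, Acaa2, Etfa, Etfb, Ehhadh and Ppara were among those that could always be named. Some genes of the lists are not reported here by name. The 5 genes most like the members were taken by r over 20 and over 18 libraries, leaving out predicted genes. Saa1, Dvl2 and Esrra were chosen after values were seen. Stellate, erythroid, neutrophil and lymphocyte markers were also summed, and in Hep-Org these sums were at most 3.10, 0.301, 2.04 and 0.0426 FPKM.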

Additional observations from a re-analysis of the deposited data

Results flagged for a closer look

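Acads and Hadhb differed between 6 h and 24 h after hepatectomy in a direct contrast of these times, without undamaged liver as the reference. Against undamaged liver neither gene was called at 6 h or 24 h (limma adjusted p = 0.119 and 0.668 for Acads, 0.490 and 0.435 for Hadhb). The 24 h minus 6 h difference was 1.51 on log2 for Acads (17.9 ± 5.37 FPKM at 6 h and 51.8 ± 3.32 at 24 h, SD, n = 2 each, limma adjusted p = 0.0248) and 1.4996 for Hadhb (9.71 ± 0.94 and 29.8 ± 8.50, limma adjusted p = 0.0397), and both were higher in both 24 h libraries than in either 6 h library. The 2 calls rest on 4 libraries and were lost under the settings named in the report. Groups of 2 libraries are too small for a search for single outlying libraries.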

How the results depend on the processing

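Rescaling to the same FPKM sum changed the results most. It left 0 of 9 genes called in Hep-Org against undamaged liver, 1 against 7 to 21 d and 0 between 24 h and 6 h. Against undamaged liver it turned Acadm to 0.0493, Acadl to 1.42, Acadvl to 0.0860, Acads to 1.18, Hadha to 0.49, Hadhb to 0.23, Hadh to 0.79 and Etfdh to 0.0124, and against 7 to 21 d it turned Acads to 0.28. Leaving mitochondrially encoded genes out of the sum, an alternative chosen after seeing the data, gave 0, 2 and 0 calls, with Acadl at 1.24, Acads at 1.002, Hadha at 0.31, Hadhb at 0.0606 and Hadh at 0.62 against undamaged liver, Acads at 0.17 against 7 to 21 d, Acadm at 0.37, Hadhb at 0.10 and Etfdh at 0.23 at 6 h (the median of the 9 turned from -0.49 to 0.10) and Cpt2 at -0.15 between 24 h and 6 h. Without a filter on low values 2 of 9 were called in Hep-Org against undamaged liver and 0 between 24 h and 6 h. Without the replicate block by submission 1 of 9 was called over the time course (Acads) and 8 in Hep-Org against 7 to 21 d, and no other count of called members moved by over 1.5 times. Taking 14 and 21 d alone as the reference, also chosen after seeing the data, gave 8 calls, with Acads (-1.24) and Acadvl (-2.09) added.

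With 1 library left out at a time, the count of called members ran from 0 to 1 at 6 h against undamaged liver, from 1 to 5 in Hep-Org against undamaged liver, from 3 to 8 against 7 to 21 d, from 0 to 2 between 24 h and 6 h and from 0 to 1 over the time course, and was 0 throughout at the other 7 times. Directions turned at 6 h for Acadm (-0.817 to 0.432), Etfdh (-1.22 to 0.355) and Acadvl (-2.17 to 0.229), for Acadl in Hep-Org against undamaged liver (-1.19 to 0.27) and, between 24 h and 6 h, for Acadl (-0.0621 to 1.07), Acadvl (-0.55 to 1.85), Cpt2 (-0.33 to 0.38) and Etfdh (-0.0486 to 1.59). The causes of these changes were not tested. Over all tested genes, the counts called moved too. In Hep-Org 3095 genes were called against undamaged liver and 3273 against 7 to 21 d, where rescaling to the same sum gave 8859 and 7616, the same without mitochondrially encoded genes gave 8084 and 6885, and leaving out 1 library gave as few as 1846 and 2143. At 6 h 1436 were called, with 348 after rescaling, 741 without the filter and 474 to 1824 with 1 library left out. Between 24 h and 6 h 1108 were called, with 241 and 637 under the rescalings, 561 without the filter and 254 to 1368 with 1 library left out. Over the time course 1252 were called, with 668 and 781, 543 and 741 to 1520 in the same order. At 12 h 406 were called, and 74 to 732 over all alternatives, at 48 h 54 and 12 to 91, at 72 h 117 and 17 to 926, at 7 d 56 and 12 to 80, at 24 h 0 and up to 30, and at 14 and 21 d 0 and up to 2 and 4. Each of the 9 genes rested on at least 485 reads in every library, and the 2 libraries a group set the precision.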
